A study of Mus musculus with 15 samples.

Results

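Transcripts of 44 mitosis and G2/M genes were followed in RAW 264.7 cells, a mouse macrophage line derived from a virus-induced tumour, after uptake of silica nanoparticles (SNPs). The genes were taken by symbol from a fixed list of mitotic cyclins and kinases and of spindle, kinetochore and cytokinesis genes, and all 44 were found among the 57186 genes of the count table. The rule of the list uses no measured value, but the list was chosen with earlier results of these data known. The cells were treated for 6 h with nonporous SNP100 (nominal diameter 100 nm) at 50 µg/mL, nonporous SNP50 (50 nm) at 25 µg/mL, mesoporous MSNPs (100 nm) at 200 µg/mL or hollow mesoporous HMSNPs (100 nm) at 200 µg/mL, or were left nontreated as controls, giving 5 groups of 3 libraries. The doses were set by the study as the highest nontoxic dose of each particle, so that MSNP and HMSNP share a dose and the nonporous particles do not. All groups are 1 cell line in RPMI medium with serum, and no synchronization of the cells is described in the sources used here.

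Before a cell divides it passes through G2 and mitosis, which are opened when the kinase Cdk1 is activated by its A- and B-type cyclins. Polo-like and Aurora kinases then build the spindle, the spindle assembly checkpoint holds the cells until every kinetochore is attached, and the anaphase-promoting complex with Cdc20 releases the sister chromatids by destroying securin and cyclin B. Most of these genes are transcribed late in the cell cycle, by way of CHR and CCAAT elements in their promoters that are read by the DREAM and MYB-MuvB complexes, Foxm1 and NF-Y. In a mixed culture such as this one, RNA levels alone cannot tell fewer cells in G2 and mitosis from less RNA in each such cell. The paper cites an earlier study of the same particles by its authors. At nontoxic concentrations that study saw no visible effect on how cells were distributed over the cycle phases. No measurement of the phases is described for the cells sequenced here.

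Total counts per library lay between 29369934 and 42617812, and each member had from 568 to 34042 counts in a library. All 10 macrophage markers checked (among them Adgre1, Cd68 and Csf1r) had at least 1 CPM (counts scaled to library size with TMM factors) in every library, and the highest single marker of fibroblasts, epithelial, T, B or endothelial cells had 0.434 CPM. The 3 T cell markers summed to between 0.297 and 0.397 CPM with MSNP and to at most 0.0917 CPM elsewhere, and their part in the results was not tested. With MSNP the sum was nearly all Cd4, at 0.397, 0.297 and 0.296 CPM. Cd3e had 0 CPM in the MSNP libraries and Cd3d at most 0.0296 CPM. The nontreated libraries were less alike than the treated ones. The median coefficient of variation of the members was 18% within the controls and between 2.28% and 3.97% within the treated groups. Control replicate 3 was the highest of all 15 libraries for 16 members and the lowest for 19, in an order that followed transcript length. Its log2 difference from the mean of the other 2 controls had a median of 0.46 over the 12 members with transcripts under 2000 bases and -0.61 over the 12 members of 5000 bases and more, with a Spearman rho of -0.77 between length and difference over the 44 genes. The other controls also differed by length from each other, with a rho of 0.74 for Control 2 minus Control 1. Comparisons with the controls carry this spread, and values without Control 2 or Control 3 are given beside part of them.

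**Figure D1:**
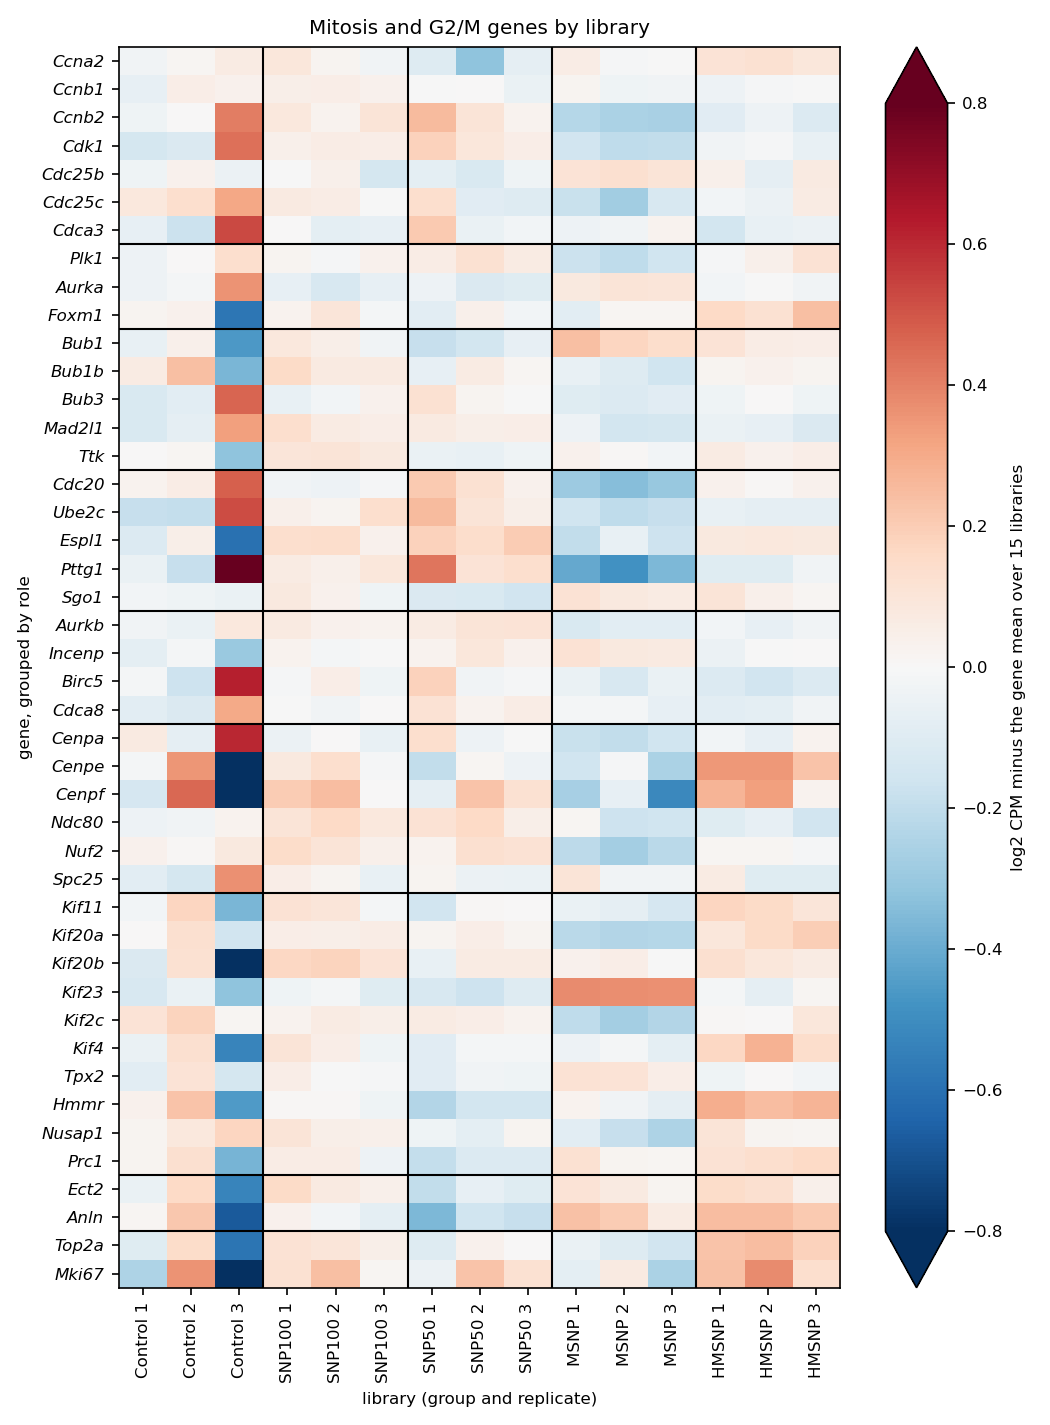
Each row is 1 of the 44 genes, each column 1 of the 15 libraries, and the colour is the log2 CPM minus the mean of that gene over all libraries, with roles separated by lines. Control 3 stands apart in both directions, and the 3 MSNP libraries share a raised Kif23 and lowered Cdc20, Pttg1, Nuf2, Kif20a and Kif2c.

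The members together took 0.678% ± 0.0646 (SD, n = 3) of all counts in the controls, 0.726% ± 0.0207 with SNP100, 0.709% ± 0.0116 with SNP50, 0.647% ± 0.00975 with MSNP and 0.745% ± 0.00367 with HMSNP. MSNP-treated libraries thus had the lowest mean share and HMSNP-treated libraries the highest. The controls had 0.674%, 0.745% and 0.616%, a range that held the MSNP libraries and reached up to the HMSNP libraries, which had 0.743% to 0.7496%. Per kilobase of transcript, the level over all libraries was highest for Ube2c, the ubiquitin-conjugating enzyme of the anaphase-promoting complex, at 182.7 CPM per kb, followed by Birc5 (survivin) at 115, Top2a (topoisomerase II alpha) at 105 and Ccna2 (cyclin A2) at 102. It was lowest for Sgo1 (shugoshin), the protector of centromeric cohesin, at 8.1 CPM per kb, and for the phosphatase gene Cdc25c at 10.8. All 44 genes had at least 10 counts in every library of every group.

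Differences were tested with edgeR's quasi-likelihood test on all 15 libraries over 19839 genes, with Benjamini-Hochberg adjustment over all of them, and genes at an adjusted p under 0.05 are termed called. The p-values measure only the spread between these libraries, which may be technical, since nothing says that they came from separate cultures. In MSNP-treated cells 3 of the 44 genes rose and 10 fell relative to the nontreated controls, together 29.5%, against 22.8% of all tested genes and 33.3% of the 5999 genes of similarly high expression (mean log2 CPM above 5, which 42 of the members pass). The share of members called was thus near that of other well-expressed genes, while by direction 11% of all genes were called lower and 11.8% higher, or 12.6% and 20.7% at high expression. The MSNP libraries lay wholly above the controls for 5 members and wholly below for 12, where 17% and 16.2% of all tested genes did so. The median log2 fold change of the members was -0.05, that of all tested genes -0.05 and that of the genes of high expression 0.04. With only the 6 libraries of the 2 groups in the model, Kif23 alone was called (13% of all genes). Without Control 2, 8 members were called higher and 12 lower (33.2% of all genes), and without Control 3, 4 and 13 (29.5%). Over the 44 genes the log2 fold change rose with transcript length (Spearman rho 0.55). The 12 members under 2000 bases had a median of -0.27, with 5 called lower and 0 higher. The 12 members of 5000 bases and more had a median of 0.105, with 0 called lower and 1 higher. With an offset that removes each library's trend with length, 2 members were called higher and 13 lower (28.6% of all genes).

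Kif23, which encodes the kinesin subunit of centralspindlin that bundles the midzone microtubules for cytokinesis, rose most. It had 223, 222 and 221 CPM in the MSNP libraries and 156, 165 and 137 CPM in the controls, with 167.5, 169 and 159.9 CPM after SNP100, 157, 152 and 159.7 CPM after SNP50, and 169.7, 163 and 173 CPM after HMSNP. All 3 MSNP libraries lay above the 12 others, with a log2 fold change against the controls of 0.54 (SE 0.0673, adjusted p = 2.22e-05). Kif23 lies at chr9:61823187-61854074 on the minus strand of GRCm39, and no annotated exon of another gene overlaps its exons. Its partner in centralspindlin, Racgap1, chosen here after its values were seen, had 174, 178 and 171 CPM with MSNP and 170.3, 178 and 157 CPM in the controls.

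Bub1, a kinase of the spindle checkpoint that marks centromeres, was the second member to rise. Its libraries had 172.5, 164.5 and 161 CPM with MSNP and 140.0, 150.4 and 106 CPM in the controls, without overlap (log2 fold change 0.33, SE 0.098, adjusted p = 0.0247). It was 0.20 without Control 3 (adjusted p = 0.00729), and the call was lost when any 1 MSNP library was left out or with only the 6 libraries, holding in 19 of 23 alternatives. The related Bub1b (BubR1), the checkpoint protein that restrains Cdc20, had 215, 209 and 201 CPM with MSNP and 234.5, 265.5 and 174 CPM in the controls, which overlap. Without Control 3, Bub1b was called lower (log2 fold change -0.25, adjusted p = 0.00186). Incenp, the scaffold of the chromosomal passenger complex, rose from 275, 288 and 237 CPM in the controls to 316, 307 and 306 CPM with MSNP, with a log2 fold change of 0.21 (SE 0.0667, adjusted p = 0.0309). The call for Incenp held in 13 of 23 alternatives, with a log2 fold change of 0.02 and no call once the trend with transcript length was removed, of 0.12 and a call with that trend removed and Control 3 left out, and of 0.14 and a call without Control 3 alone (adjusted p = 0.0133).

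Among the regulators of anaphase, Pttg1 and Cdc20 fell and the other 3 members did not pass the test. With MSNP, 11% of all tested genes were called lower, or 12.6% at high expression. The roles hold few genes each, and no role was tested as a group. Cdc20, the activator of the anaphase-promoting complex, had 127.5, 123 and 126 CPM with MSNP and 159, 162 and 217 CPM in the controls, and fell by 0.51 on the log2 scale (SE 0.0962, adjusted p = 0.000984). Pttg1, which encodes securin, the inhibitor of separase, had 37.4, 35.5 and 38.7 CPM with MSNP and 48.0, 43.6 and 89.0 CPM in the controls, and fell by 0.70 (SE 0.194, adjusted p = 0.0166). The control library with 89.0 CPM is Control 3. Without it the decreases were 0.35 for Cdc20 (adjusted p = 9.51e-06) and 0.29 for Pttg1 (adjusted p = 0.00602), both still called. Espl1, the separase itself, had a log2 fold change of 0.06, Ube2c one of -0.27 and Sgo1 one of 0.12. With transcripts of 762 and 1854 bases, Pttg1 and Cdc20 are in the range where Control 3 was high. Cdc20 shares exon sequence on the opposite strand with Elovl1 and Pttg1 with Slu7, and the strand setting of the counting is not given in the sources used here.

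In the cyclin-Cdk1 switch, 2 of 7 members fell, where 11% of all tested genes were called lower, or 12.6% at high expression. Ccnb2, which encodes cyclin B2, had 110.0, 107.9 and 107.5 CPM with MSNP and 125, 129 and 171 CPM in the controls (log2 fold change -0.39, SE 0.099, adjusted p = 0.00995), and -0.22 without Control 3 (adjusted p = 0.00396). Cdc25c, one of the phosphatases that activate Cdk1, had 18.8, 17.5 and 19.4 CPM with MSNP and 22.5, 23.3 and 26.3 CPM in the controls (log2 fold change -0.37, SE 0.0839, adjusted p = 0.00438). Both genes showed MSNP libraries below all other libraries. By contrast, Ccnb1, the gene of cyclin B1, had values between 181 and 197 CPM in all 15 libraries, with a log2 fold change of -0.02 (SE 0.0538) with MSNP. Cdk1 itself had 150.7, 145 and 146 CPM with MSNP and 152, 154.5 and 227 CPM in the controls, and its log2 fold change of -0.27 did not pass the test (adjusted p = 0.107) and was -0.05 without Control 3. Ccna2 (cyclin A2, -0.0013), Cdc25b, a second activating phosphatase (0.13), and Cdca3, a trigger of mitotic entry (-0.15), were not called either.

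Of the kinases and their transcription factor, Plk1 was called. Plk1, the polo-like kinase that drives mitotic entry and spindle assembly, had 113, 111 and 114 CPM with MSNP and 124, 127.5 and 139.7 CPM in the controls (log2 fold change -0.21, SE 0.061, adjusted p = 0.0209). The call held in 18 of 23 alternatives. It was lost when any 1 MSNP library was left out, with only the 6 libraries and with no filter on low counts. Aurka, the Aurora kinase of centrosomes and spindle poles, had a log2 fold change of -0.02. Without Control 3 it was called higher (0.13, adjusted p = 0.0244). Foxm1, the forkhead factor of G2/M genes, had 141, 150.5 and 151 CPM with MSNP and 151.5, 153 and 100 CPM in the controls (0.13, adjusted p = 0.485). In the passenger complex Aurkb, its kinase subunit, had 106, 109 and 109 CPM with MSNP and 113.5, 111 and 122.5 CPM in the controls (-0.10, adjusted p = 0.226), and Birc5 had 107.9, 103 and 108 CPM against 111, 99.8 and 173 CPM (-0.27, adjusted p = 0.213). Cdca8 (borealin), the remaining subunit, had a log2 fold change of -0.08.

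At the centromere and kinetochore 2 of 6 members fell, where 11% of all tested genes were called lower, or 12.6% at high expression. Nuf2, a subunit of the Ndc80 complex that binds microtubules, had 94.3, 90.2 and 93.5 CPM with MSNP and 111, 109 and 115 CPM in the controls (log2 fold change -0.27, SE 0.0566, adjusted p = 0.00235). Its 3 MSNP libraries were the lowest of the 15, and the controls differed little among themselves. Cenpa, the histone H3 variant of centromeres, had 121, 119 and 122 CPM with MSNP and 144, 129.9 and 208 CPM in the controls (-0.41, SE 0.125, adjusted p = 0.0277), and -0.17 without Control 3 (adjusted p = 0.0197). The call for Cenpa held in 19 of 23 alternatives, and was lost when any 1 MSNP library was left out or with only the 6 libraries. The other subunits of the Ndc80 complex, Ndc80 and Spc25, had log2 fold changes of -0.09 and -0.05. The long genes Cenpe, a kinetochore motor, and Cenpf, a kinetochore scaffold, had the widest spread of these 6 among the controls, with 121, 157 and 69.8 CPM for Cenpe and 135, 204 and 82.6 CPM for Cenpf. Without Control 3 both were called lower with MSNP, Cenpe at -0.31 (adjusted p = 0.0163) and Cenpf at -0.46 (adjusted p = 0.0259).

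Among the 10 kinesins and spindle proteins, Kif20a, Kif2c and Nusap1 fell beside the rise of Kif23. Of all tested genes, 11% were called lower and 11.8% higher. Kif20a (MKLP2), the kinesin that carries the passenger complex to the midzone, had 206, 203.5 and 204 CPM with MSNP and 241, 262 and 216 CPM in the controls (log2 fold change -0.23, SE 0.0662, adjusted p = 0.0213), a call that held in 13 of 23 alternatives. Kif2c, a microtubule depolymerase at centromeres, had 76.3, 72.8 and 74.7 CPM with MSNP and 94.6, 99.4 and 88.9 CPM in the controls (-0.34, SE 0.0591, adjusted p = 0.000546). Nusap1, which bundles spindle microtubules, had 101, 93.9 and 90.2 CPM with MSNP and 108, 113 and 120.4 CPM in the controls (-0.26, SE 0.0646, adjusted p = 0.00759). For these 3 genes too the MSNP libraries lay below the 12 others. The remaining motors and spindle genes Kif11, Kif20b, Kif4, Tpx2, Hmmr and Prc1 had log2 fold changes from -0.03 to 0.26 and were not called. Kif20a shares exons on opposite strands with Brd8 and Cdc23, and Nusap1 with Oip5. The same holds for Plk1 with Gm44985, for Incenp with Gm50340, for Cdk1 with Ank3 and for Cdc25c with Rpl27rt, so that their counts could hold reads of the partner if strand was not used.

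The checkpoint genes Bub3, Mad2l1 and Ttk had log2 fold changes of -0.21, -0.17 and 0.10. In cytokinesis Ect2, the exchange factor that activates RhoA, had one of 0.18, and Anln (anillin), the scaffold of the contractile ring, had 194, 190.4 and 173 CPM with MSNP and 167, 192 and 104 CPM in the controls (0.27, adjusted p = 0.227). Of the 2 genes of chromosome structure, Top2a had 527, 508 and 492 CPM with MSNP and 510.1, 605 and 364 CPM in the controls, and Mki67, the surfactant of mitotic chromosomes known as Ki-67, had 658, 727 and 581 CPM against 585, 888 and 286 CPM. Their log2 fold changes of 0.05 and 0.16 were well inside the spread of the controls. Without Control 3 they turned to -0.12 for Top2a and -0.16 for Mki67, neither of them called.

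**Figure D2:**
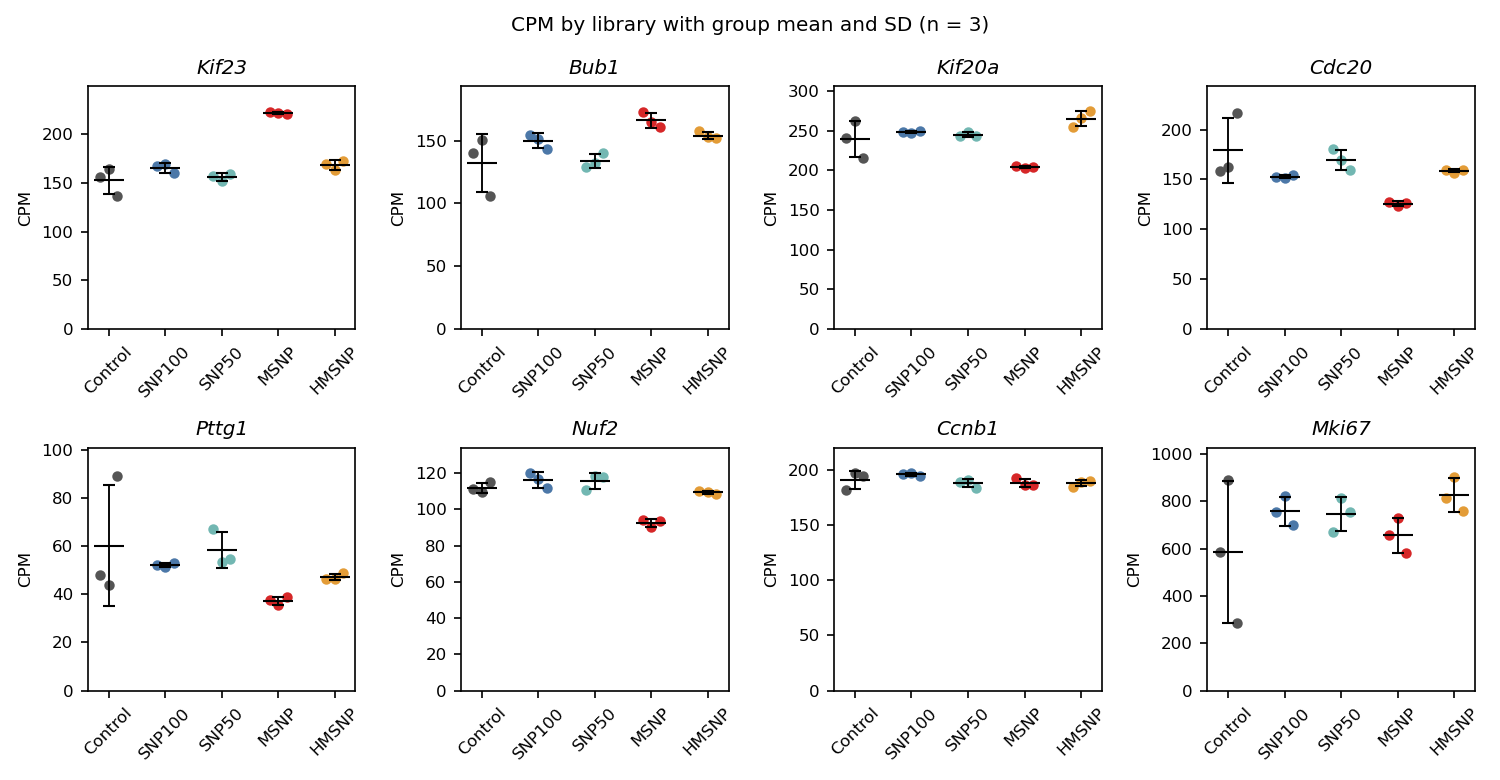
CPM of 8 members (y axis, from 0) in each library, as points by group, with the group mean and SD (n = 3) as bars. The MSNP points of Kif23 lie between 221 and 223 CPM, above all others, those of Kif20a, Cdc20, Pttg1 and Nuf2 lie below all others, Ccnb1 is level, and Mki67 shows the spread of the controls.

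Taken without reference to the controls as a group, the 3 MSNP libraries were the lowest of the 15 for 12 members, or 27.3%, and the highest for 3, or 6.82%. Among all tested genes they were the lowest for 7.98% and the highest for 11.4%. The 12 genes were Ccnb2, Cdk1, Cdc25c, Plk1, Cdc20, Pttg1, Aurkb, Cenpa, Nuf2, Kif20a, Kif2c and Nusap1, and the 3 genes Cdc25b, Bub1 and Kif23. These are descriptions, with no test. Here, and wherever groups are said not to overlap, the share beside the members is over all tested genes. None was taken for the genes of high expression, to which 42 of the members belong, so the 2 sets differ in expression.

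Because 2 genes of a library share its depth and scaling, their count ratio does not depend on the scaling of the library. The 5 pairs were chosen with the values of their genes known, as a description. Kif23 and Kif20a, paralogous midzone kinesins, had a count ratio of 1.08, 1.09 and 1.08 in the MSNP libraries and of 0.612 to 0.684 in the 12 others. The ratio of Bub1 to Bub1b was 0.801, 0.788 and 0.799 with MSNP, 0.692, 0.662 and 0.666 with HMSNP and 0.562 to 0.642 in the other 9 libraries. Its value in Control 3, at 0.611, was close to the other controls. The ratio of cyclin B2 to cyclin B1 counts was lowest with MSNP, at 0.572, 0.581 and 0.578, where HMSNP had 0.629 to 0.663 and the controls 0.692, 0.656 and 0.880. Ccnb2 and Ccnb1 differ in length (1576 and 2527 bases), and the highest value of that ratio was that of Control 3. The ratio of Cdc20 to Plk1 was 1.106 to 1.125 with MSNP and 1.155 to 1.552 in the 12 others. The Nuf2 to Ndc80 ratios, 1.426, 1.546 and 1.597 with MSNP, overlapped those of SNP50 (1.56 to 1.741), the highest lying just below those of SNP100 (1.599 to 1.711).

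**Figure D3:**
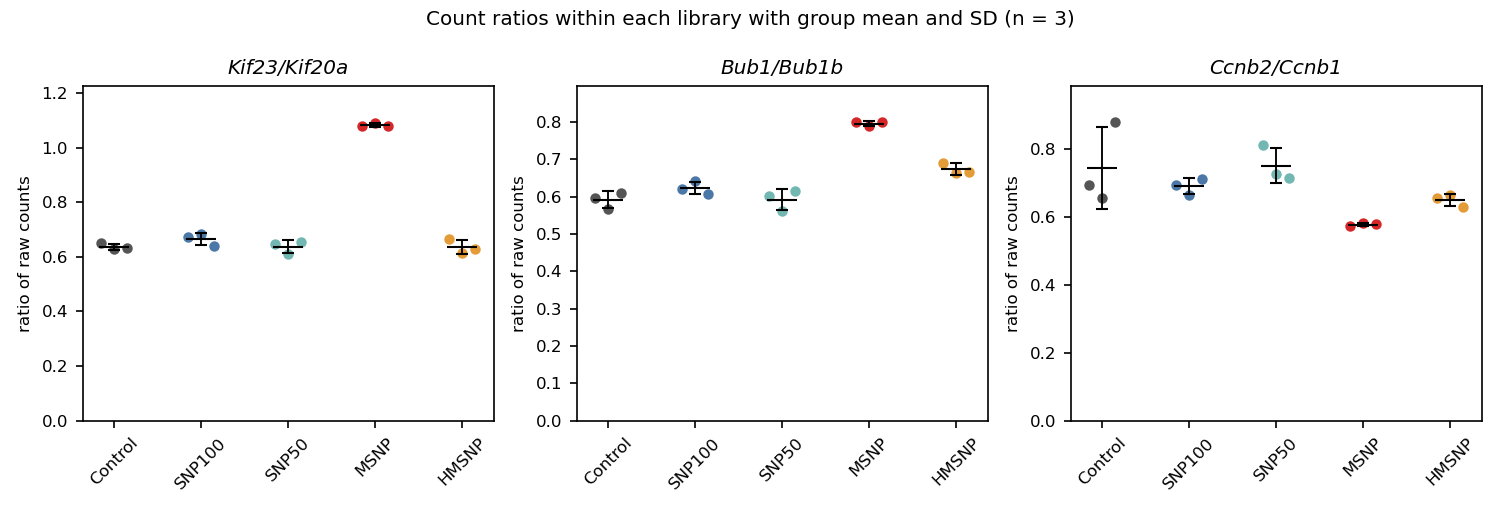
Ratio of raw counts of 2 genes within each library (y axis, from 0), as points by group, with the group mean and SD (n = 3). Kif23 to Kif20a lies near 1.08 in the MSNP group and between 0.612 and 0.684 elsewhere, Bub1 to Bub1b is highest in the MSNP group and next in the HMSNP group, and Ccnb2 to Ccnb1 is lowest in the MSNP group.

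The promoters of these genes are shown because genes of one programme moved in opposite directions. RefSeq promoter windows of 300 bases (250 before and 50 from the transcription start, build GRCm38.p6) were matched for 37 of the 44 members. The CHR-type letters TTTGAA or TTCGAA, searched on both strands with a gene counted once, were found in 30 of them (81.1%) and in 21.7% of all 27025 genes of the table, and CCAAT, also on both strands, in 28 (75.7%) against 41.1%. Both together were present in 26 (70.3%) against 8.61%. The windows of 2 genes that rose with MSNP, Kif23 and Bub1, and of 3 that fell, Cdc20, Ccnb2 and Plk1, follow 5′ to 3′ along each gene's strand, with the CHR-type and CCAAT letters of either strand in capitals.
Kif23, chr9:61946750-61947049, minus strand: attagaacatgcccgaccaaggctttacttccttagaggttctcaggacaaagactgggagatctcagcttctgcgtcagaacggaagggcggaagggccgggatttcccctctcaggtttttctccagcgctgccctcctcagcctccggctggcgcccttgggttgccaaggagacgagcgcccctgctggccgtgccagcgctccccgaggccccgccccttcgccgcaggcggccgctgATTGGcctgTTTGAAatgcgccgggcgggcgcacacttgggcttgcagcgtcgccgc
Bub1, chr2:127831810-127832109, minus strand: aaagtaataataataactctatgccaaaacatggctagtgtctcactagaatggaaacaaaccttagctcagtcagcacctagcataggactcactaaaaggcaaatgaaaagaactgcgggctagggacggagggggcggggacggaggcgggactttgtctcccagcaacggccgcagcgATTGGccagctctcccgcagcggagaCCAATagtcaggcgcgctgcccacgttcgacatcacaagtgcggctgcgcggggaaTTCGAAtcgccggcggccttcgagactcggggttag
Cdc20, chr4:118437294-118437593, minus strand: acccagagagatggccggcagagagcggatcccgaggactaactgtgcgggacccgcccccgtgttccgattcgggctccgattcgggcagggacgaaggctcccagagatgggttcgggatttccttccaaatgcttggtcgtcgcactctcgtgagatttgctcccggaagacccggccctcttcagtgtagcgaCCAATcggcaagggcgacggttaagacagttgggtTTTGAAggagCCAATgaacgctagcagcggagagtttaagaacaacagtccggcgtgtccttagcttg
Ccnb2, chr9:70421505-70421804, minus strand: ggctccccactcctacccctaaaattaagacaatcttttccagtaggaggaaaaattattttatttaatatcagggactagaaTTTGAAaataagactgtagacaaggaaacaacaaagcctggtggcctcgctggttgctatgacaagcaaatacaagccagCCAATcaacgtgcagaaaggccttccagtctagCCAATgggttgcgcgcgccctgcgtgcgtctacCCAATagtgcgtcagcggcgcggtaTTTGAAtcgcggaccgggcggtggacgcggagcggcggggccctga
Plk1, chr7:122159185-122159484, plus strand: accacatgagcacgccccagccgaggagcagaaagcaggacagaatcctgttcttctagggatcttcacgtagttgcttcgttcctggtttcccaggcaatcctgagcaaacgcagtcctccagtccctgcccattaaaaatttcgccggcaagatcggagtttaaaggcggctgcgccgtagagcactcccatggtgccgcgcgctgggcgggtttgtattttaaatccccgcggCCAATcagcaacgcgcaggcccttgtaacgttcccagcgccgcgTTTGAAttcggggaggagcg
All 5 windows hold both kinds of letters. These 5 genes were picked by name and not by a rule, so that this is no result about the genes that moved. The CHR-type match nearest the start begins at base 3 in Kif23, 15 in Bub1, 5 in Ccnb2 and 31 in Plk1, counted from 1 at the start. In Cdc20 that match begins at base -18, before the start. Of the 8 matched genes that fell, 5 held the CHR-type letters and 4 CCAAT, and of the 27 matched genes not called, 23 and 22 did. Pttg1, Nuf2 and Nusap1, which fell and whose windows are not printed, were without either in their window, and Kif2c held only the CHR-type letters. A match is a run of letters in this window and not a bound site.

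MSNP was also compared with SNP100, the nonporous particle of the same nominal diameter at a lower dose, which leaves the control libraries out of the contrast and keeps them in the estimate of the spread. Kif23 rose (log2 fold change 0.42, SE 0.0672, adjusted p = 0.000311), and 7 members fell, together 18.2% against 17.9% of all tested genes (10.4% higher and 7.53% lower) and 27% at high expression (18.4% higher and 8.53% lower). They were Nuf2 (-0.33), Ccnb2 (-0.32), Kif20a (-0.28), Kif2c (-0.28), Nusap1 (-0.23), Ndc80 (-0.22) and Plk1 (-0.19). Ndc80 had 66.1, 58.4 and 58.5 CPM with MSNP and 70.2, 73.0 and 69.4 CPM with SNP100. The median of the members was -0.13, while that of all tested genes was -0.03. All 3 MSNP libraries lay below all SNP100 libraries for 26 members and above them for 7, where all tested genes had 22.7% below and 22.9% above. Without Control 3 in the model 5 members were called higher and 19 lower, where 33.1% of all genes were called, and with the 12 treated libraries alone 5 higher and 22 lower, where 35.4% of all genes were called. Bub1, Aurka, Cdc25b and Anln then joined Kif23 among the genes called higher, and Cdc20, Pttg1, Cdk1, Top2a, Cenpf and Aurkb were among those called lower. The calls for Kif23, Kif20a, Kif2c and Nuf2 held in all 24 alternatives run for this comparison, those for Nusap1, Ndc80, Ccnb2 and Plk1 in 21, 18, 14 and 13.

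HMSNP and MSNP share a nominal diameter and a dose by mass, and the former have a hollow core. The paper also describes HMSNPs as very low in density and distinct in surface composition. These differences cannot be told apart in this comparison. In HMSNP-treated relative to MSNP-treated cells, 6 members were higher and 1 lower, 15.9% against 20.2% of all tested genes (9.22% higher and 11% lower) and 28.7% at high expression (11% higher and 17.8% lower). Kif20a, with 255, 266 and 275 CPM against 206, 203.5 and 204 CPM, was higher by a log2 fold change of 0.38 (SE 0.0662, adjusted p = 0.00063). Cdc20 had 159.7, 157 and 159 CPM with HMSNP (0.34, SE 0.0961, adjusted p = 0.021), and Kif2c, Nuf2, Plk1 and Nusap1 were higher by 0.27, 0.24, 0.23 and 0.22. Kif23 was lower by a log2 fold change of -0.40 (SE 0.0671, adjusted p = 0.000452). Against the controls, a comparison that shares the MSNP libraries with this one, MSNP had given -0.23 for Kif20a, -0.51 for Cdc20, -0.34 for Kif2c, -0.27 for Nuf2, -0.21 for Plk1, -0.26 for Nusap1 and 0.54 for Kif23.

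The HMSNP libraries lay above all MSNP libraries for 26 members, or below for 7, against 21.6% and 23.7% of all tested genes, with a median log2 fold change of 0.10 and one of 0.00 over all tested genes. Besides the called genes, Top2a had 640.4, 648 and 622 CPM with HMSNP against 492 to 527 CPM with MSNP (0.32, SE 0.125, adjusted p = 0.0889), and Mki67 had 814, 903 and 759 CPM (0.33, SE 0.261, adjusted p = 0.458). Cenpf had 179, 186 and 151 CPM against 123, 142 and 103 CPM (0.49, adjusted p = 0.168), and Pttg1 had 46.4, 46.4 and 48.7 CPM (0.34, adjusted p = 0.268). With Control 3 left out, 20 members were called higher and 3 lower, where 33.9% of all genes were called, among them Top2a (0.31, adjusted p = 0.000206), Pttg1 (0.34, adjusted p = 0.000666) and Mki67 (0.32, adjusted p = 0.0444), and with the 12 treated libraries alone 22 and 1, where 35.8% of all genes were called. The calls for Kif23, Kif20a, Kif2c and Nuf2 held in all 24 alternatives here too, those for Cdc20 and Plk1 in 23 each and that for Nusap1 in 19.

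**Figure D4:**
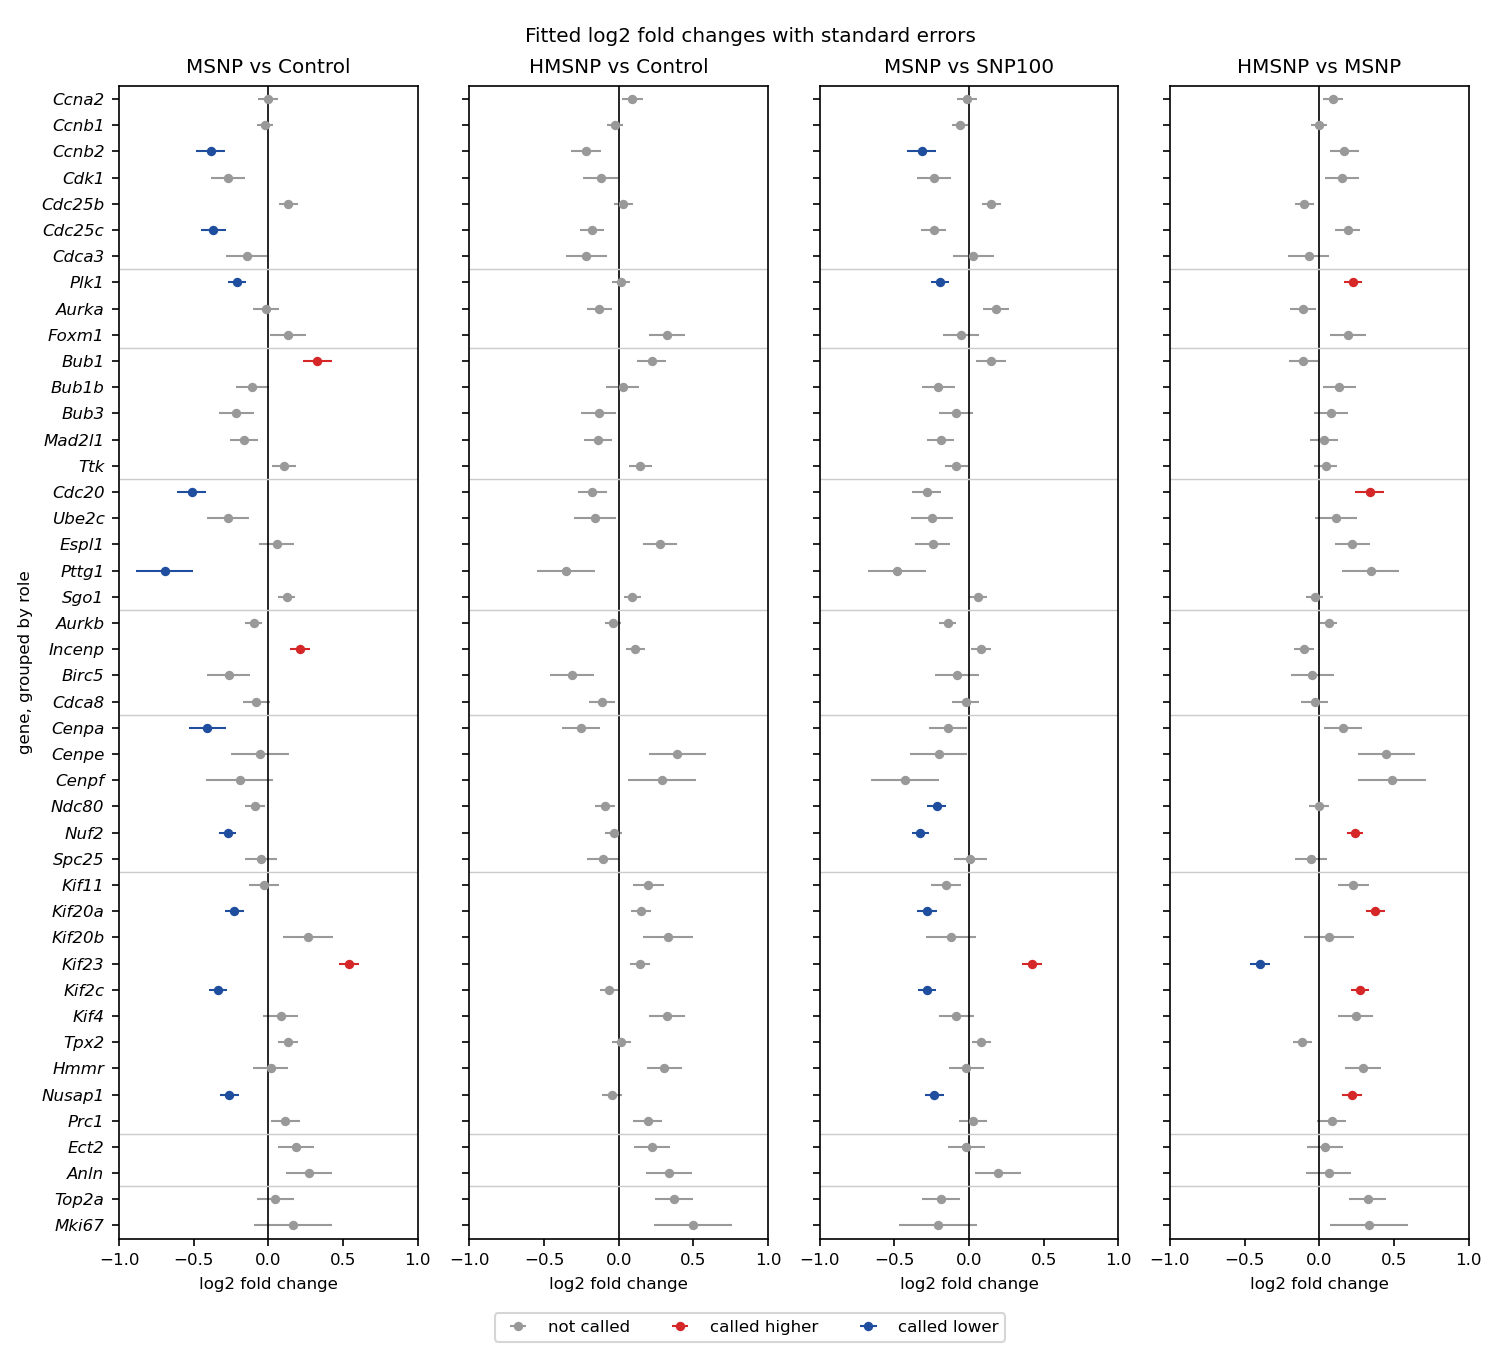
Fitted log2 fold change (x axis) of each of the 44 genes in 4 comparisons, with standard errors as bars, and colours for genes called higher or lower at an adjusted p under 0.05. Kif23 is called in 3 panels with its direction turned in the comparison of HMSNP with MSNP, where 6 genes are called higher, and no gene is called for HMSNP against the controls.

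Relative to the nontreated controls, edgeR called 0 members with HMSNP, where 5.16% of all tested genes were called. By edgeR 11 members had an unadjusted p under 0.05 (24% of all genes). DESeq2 called 0 members as well, where it called 9.8% of all tested genes. The HMSNP libraries lay wholly above the controls for 9 members and wholly below for 3, where 10.9% and 12% of all tested genes did so. The genes with the largest positive values were long ones. Mki67 had a log2 fold change of 0.49 (adjusted p = 0.256), Cenpe of 0.39 with 156, 156 and 144 CPM (adjusted p = 0.226), Top2a of 0.37 (adjusted p = 0.103), Anln of 0.33 with 196, 196 and 191 CPM (adjusted p = 0.199), Kif20b of 0.33 with 94.0, 91.7 and 90.1 CPM (adjusted p = 0.238) and Foxm1 of 0.32 with 167, 162 and 176 CPM (adjusted p = 0.13). The short genes Pttg1, Birc5 and Cenpa had -0.35, -0.31 and -0.25. Without Control 3 these 3 had 0.04, -0.03 and -0.02, and Cenpe, Anln, Kif20b and Foxm1 had 0.13, 0.12, 0.09 and 0.15. Over the 44 genes the fold change rose with transcript length (Spearman rho 0.78), where the difference of Control 3 had a rho of -0.77, and the rho was 0.21 for HMSNP against MSNP. With an offset that removes each library's trend with length, 1 member (Top2a) was called higher (10.2% of all genes called) and the median of the members was 0.04. With Control 3 left out as well, 2 (Ube2c and Top2a) were called higher (11.3% of all genes called), with a median of 0.05. Leaving out Control 2 gave 16 members called higher and 3 lower (25.2% of all genes), and leaving out Control 3 gave 0 (8.66%), where Mki67 had 0.16 and Top2a 0.19.

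**Figure D5:**
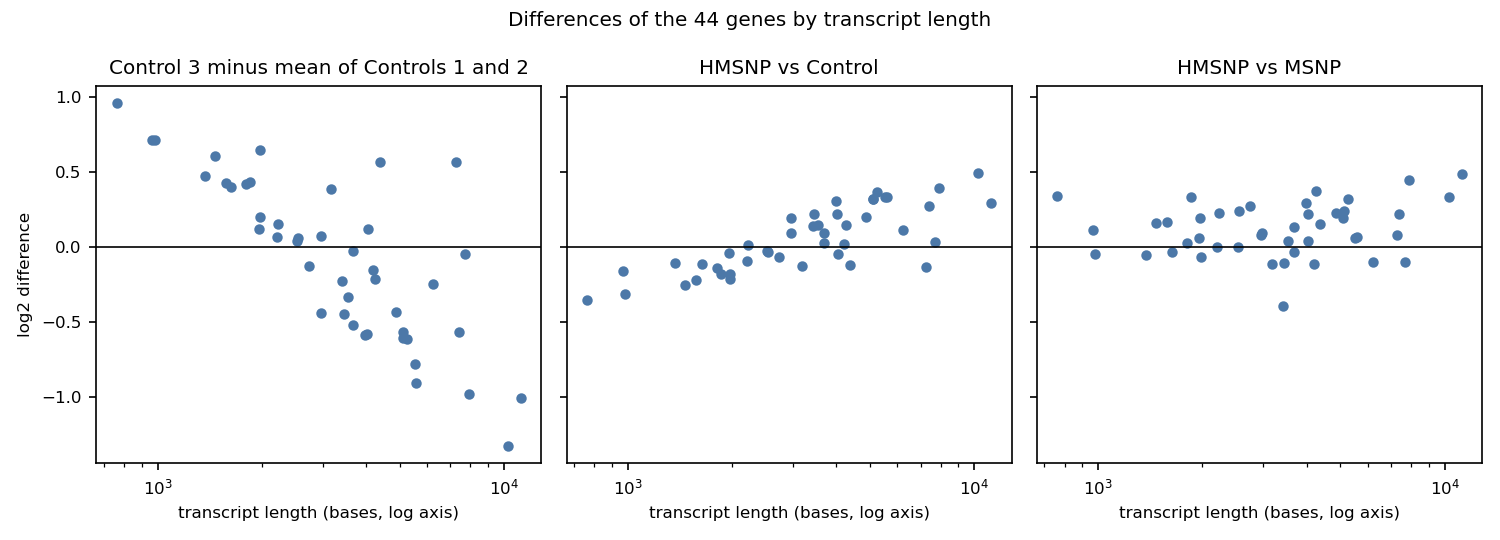
Log2 difference of each of the 44 genes (y axis) by transcript length in bases (x axis, log scale), for Control 3 minus the mean of Controls 1 and 2, for HMSNP against the controls and for HMSNP against MSNP. The first falls with length (rho -0.77), the second rises with length (rho 0.78), and the third shows little order by length (rho 0.21).

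With the nonporous particles edgeR called 0 members in either group. With SNP100, 0.912% of all tested genes were called and 6 members passed an unadjusted p under 0.05 (10.5% of all genes), the groups did not overlap for 6 (12.5% of all genes), and the values ranged from -0.27 for Cenpa to 0.39 for Kif20b. With SNP50, 1.41% of all tested genes were called and 5 members passed an unadjusted p under 0.05 (12% of all genes) and the groups did not overlap for 5 (14.1%), with values from -0.20 to 0.37, the highest being Espl1 (adjusted p = 0.168). DESeq2 called 0 members in both, where it called 2.5% of all tested genes with SNP100 and 3.43% with SNP50. Without Control 3, SNP100 had 3 members higher (Cdk1, Mad2l1 and Ube2c), where 5.16% of all genes were called, and SNP50 had 8 higher, among them Cdk1, Ube2c, Pttg1 and Aurkb, and 3 lower (Hmmr, Prc1 and Anln), where 18.9% of all genes were called with SNP50. Between SNP50 and SNP100, which differ in size and dose, edgeR called 0 of all tested genes, 2 members (Ccna2 and Sgo1) passed an unadjusted p under 0.05 (4.37% of all genes), and by DESeq2 0 members and 1 gene in all were called. The SNP50 libraries lay wholly below the SNP100 libraries for 15 members and wholly above for 6, where 12.3% and 11.6% of all tested genes did so. With the 12 treated libraries alone, 7 members were lower with SNP50, among them Ccna2, Bub1, Anln and Ect2, where 3.04% of all genes were called.

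Among 58 further mitotic genes, 4 rose and 12 fell with MSNP against the controls, where 11.8% of all tested genes were called higher and 11% lower, with a median of -0.04. Gas2l3, which crosslinks actin and microtubules in cytokinesis, rose from 81.6, 103 and 36.5 CPM to 221, 223 and 197 CPM (log2 fold change 1.54, SE 0.246, adjusted p = 0.000251), and Plk4, the kinase of centriole duplication, rose by 0.50. Cks2, a Cdk1-binding subunit, fell from 38.5, 37.6 and 62.5 CPM to 27.5, 26.7 and 26.2 CPM (-0.79, SE 0.146, adjusted p = 0.000886), and Psrc1, a spindle protein, fell by 0.72. With HMSNP against MSNP, 8 of the 58 were higher and 2 lower, where 9.22% and 11% of all tested genes were. Psrc1 was higher by 0.68 and Bora, the activator of Aurora A and Plk1, by 0.58, while Gas2l3 was lower by a log2 fold change of -0.996. Of 16 subunits and regulators of the anaphase-promoting complex, 1 rose with MSNP (Cdc27, 0.48) and 1 fell (Anapc16, -0.34), where 22.8% of all tested genes were called. Control 3 stood apart for both, with 62.35 CPM of Cdc27 against 97.0 and 116 CPM in the other controls, and 60.4 CPM of Anapc16 against 41.7 and 41.1 CPM.

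Of 17 tested CDK inhibitors and G2 brakes, 5 rose and 8 fell with MSNP against the controls, where 22.8% of all tested genes were called. Plk2, a polo-like kinase induced by stress, had 50.9, 49.7 and 48.2 CPM with MSNP and 4.32, 4.31 and 3.1 CPM in the controls (log2 fold change 3.67, SE 0.119, adjusted p = 1.89e-11), and 9.61, 11.03 and 10.1 CPM with HMSNP. Ccng2, a cyclin of arrested cells, fell from 7.7, 6.27 and 7.0 CPM to 1.32, 1.73 and 1.48 CPM with MSNP (-2.20, SE 0.121, adjusted p = 2.9e-09). Gadd45b, a stress sensor that binds Cdk1, rose by 1.28 and the antiproliferative Btg1 fell by 0.81. Part of these changes was shared. Against the controls, 1 rose and 1 fell with SNP100 (0.912% of all genes called), 1 and 3 with SNP50 (1.41%), and 2 and 4 with HMSNP (5.16%). Plk2 had log2 fold changes of 0.71, 0.55 and 1.4 there. Ccng2 had -0.56 with SNP50 and -0.76 with HMSNP, Btg1 -0.38 and -0.66, and Cdkn1a -0.42 with SNP100, all called. Cdkn1a, which encodes the inhibitor p21, had 402, 408 and 415 CPM with HMSNP and 223, 228 and 234 CPM with MSNP (0.84, SE 0.0797, adjusted p = 1.36e-06). The controls, with 337, 319 and 408.5 CPM of Cdkn1a, lay between these groups and reached into the range of HMSNP.

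Of 18 regulators of the MuvB, MYB and E2F families, 1 rose and 3 fell with MSNP against the controls (22.8% of all tested genes called), and 7 were higher and 0 lower with HMSNP against MSNP (9.22% higher and 11% lower). E2f2, an activator of S phase genes, had 27.3, 27.5 and 29.7 CPM with MSNP and 57.7, 57.1 and 64.0 CPM in the controls (log2 fold change -1.08, SE 0.0667, adjusted p = 1.11e-08), and 54.3, 55.1 and 56.3 CPM with HMSNP. Lin54, the MuvB subunit that binds CHR elements, rose by 0.60, with 25.6 CPM in Control 3 against 40.9 and 45.1 CPM in the other controls. Mybl2 (B-Myb), the activating partner of MuvB, had 111.9, 115.5 and 115.5 CPM with HMSNP and 96.9, 90.5 and 86.8 CPM in the controls (0.32, SE 0.0598, adjusted p = 0.0051). SNP50 libraries had 107.2, 112.3 and 110.9 CPM of Mybl2, also called higher than the controls (0.27, adjusted p = 0.0418). Of 26 G1 and S phase genes, 4 rose and 5 fell with MSNP, led by the licensing genes Mcm2 (0.43) and Cdt1 (0.43) and by the cyclins Ccnd3 (-0.43) and Ccne1 (-0.31). Of the same genes, 2 rose and 0 fell with SNP50, Cdt1 (0.39) and Cdc6 (0.28), where 1.41% of all tested genes were called. With HMSNP 7 rose and 0 fell, where 5.16% of all tested genes were called, among them Cdk6 (0.90) and Ccnd1 (cyclin D1, 0.54), the latter with 913.5, 945 and 911 CPM against 655, 687 and 563 CPM in the controls.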

How the data were processed

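RNA was extracted from RAW 264.7 cells after 6 h in 5 groups of 3 libraries, and poly(A) RNA was made into directional libraries and sequenced in pairs. The submitters' processing notes name cutadapt 1.16, STAR 2.7.9a, featureCounts 1.6.3 and the mouse build GRCm39, and the annotation release, the strand setting and whether reads or pairs were counted are not given in the sources used here. The authors deposited whole-number counts per gene and library, without normalization, with replicates kept apart. Groups were taken from the sample labels and doses from the study's methods.

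The tests used edgeR 4.0.16 in R 4.3.3 (TMM, 1 model of all 15 libraries, quasi-likelihood test, Benjamini-Hochberg adjustment) on the 19839 genes with at least 10 counts over all libraries. The standard error is the absolute log2 fold change divided by the square root of F. The 7 comparisons are not independent, since each group enters more than 1 of them. Symbols, positions and transcript lengths came from GENCODE vM39 on GRCm39 (56630 of 57186 identifiers matched), with the canonical transcript for length. Promoter windows came from RefSeq on GRCm38.p6 and are used for their letters only. All 44 members are accounted for by role. Values per library are given for the member with the largest absolute log2 fold change in each role (MSNP or HMSNP against the controls, HMSNP against MSNP), for Ccnb1, Cdk1, Plk1, Aurkb, Cdc20, Top2a, Mki67 and Foxm1 whatever their change and, beyond this rule, for the other called members. From the other lists, at most 2 called genes per direction and comparison are named. The members and lists were chosen with earlier results of these data known. Alternatives were DESeq2 1.42.0, RLE factors, the filterByExpr filter, no filter, models of just the 6 libraries compared, a replicate block, an offset that removes each library's trend with transcript length (lowess, span 0.3), the same without Control 3, leaving out each library, and, added after seeing the data, the 12 treated libraries alone. The steps were tested on simulated data, in which all libraries shared a common mean per gene apart from set changes with MSNP. Those data held no trend with transcript length and no wider spread in the controls, so that the test does not cover either. The labels give each group a library-name number of its own, so that this number and the treatment cannot be told apart.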

Additional observations from a re-analysis of the deposited data

How the results depend on the processing

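None of the called members reversed its direction in any alternative run. Leaving out 1 library gave, for members called higher and lower, 0 to 3 and 0 to 0 for SNP100 against the controls, 0 to 8 and 0 to 3 for SNP50, 1 to 8 and 6 to 13 for MSNP, 0 to 16 and 0 to 3 for HMSNP, 1 to 5 and 3 to 19 for MSNP against SNP100, 4 to 20 and 1 to 3 for HMSNP against MSNP, and 0 to 0 and 0 to 0 for SNP50 against SNP100. The highest counts came without Control replicate 3, except for the 16 and 3 with HMSNP and the 8 with MSNP, which came without Control replicate 2, the lowest with MSNP came without an MSNP library, the 3 lower for MSNP against SNP100 came without SNP100 replicate 1 or MSNP replicate 2 or 3, and the 4 higher for HMSNP against MSNP came without HMSNP replicate 3. Of all genes, 5.16%, 18.9%, 29.5%, 33.1% and 33.9% were called without Control 3 for SNP100, SNP50, MSNP, MSNP against SNP100 and HMSNP against MSNP, and 33.2% for MSNP and 25.2% for HMSNP without Control 2. The median log2 fold change of the members ranged from -0.042 to 0.0294 with SNP50, from -0.0603 to 0.00195 with MSNP, from 0.00923 to 0.0911 with HMSNP and from -0.0713 to -0.0264 for SNP50 against SNP100. With the length offset, 1 was higher and 1 lower with SNP50 (4.7% of all genes called), 2 higher and 13 lower with MSNP (28.6%) and 1 higher with HMSNP (Top2a, 10.2%). MSNP against SNP100 gave 1 higher and 18 lower (24.6%), and HMSNP against MSNP 18 higher and 1 lower (27%). With the offset and Control 3 left out, 4 were higher with SNP100 (6.25% of all genes called), 5 higher and 6 lower with SNP50 (15.6%), 3 higher and 16 lower with MSNP (32.1%) and 2 higher with HMSNP (11.3%). MSNP against SNP100 then gave 3 higher and 25 lower (34.5%), and HMSNP against MSNP 25 higher and 3 lower (36.3%). With only the 6 libraries of a comparison, MSNP against the controls gave 1 higher (Kif23) and 0 lower (13% of all genes), MSNP against SNP100 gave 5 and 23 (40.9%), and HMSNP against MSNP gave 24 and 4 (40.9%). With the 12 treated libraries alone, these last 2 gave 5 and 22 (35.4%), and 22 and 1 (35.8%), and SNP50 against SNP100 gave 7 lower (3.04%). The cause of these moves was not tested. The median for HMSNP against MSNP was 0.14 with the offset and 0.139 with the offset and Control 3 left out. DESeq2, RLE factors and filterByExpr kept all 13 MSNP calls. Removing the filter on low counts left 10 of them.

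The replicate numbers did not pair the libraries: deviations of same-numbered libraries correlated between -0.517 and 0.573, with 10 of 30 over 0.1. With the replicate block, 3 members were higher and 10 lower with MSNP against the controls (22.1% of all genes called), 6 higher and 1 lower for HMSNP against MSNP (19.2%), 1 higher and 5 lower for MSNP against SNP100 (16.9%, Ccnb2 and Plk1 lost), and 0 in the other comparisons.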
